A study of Homo sapiens with 4 samples.

Results

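The locus described here is the stretch of human chromosome 19 that carries 5 kallikrein genes, KLK1, KLK15, KLK3, KLK2 and KLK4, which are 5 of 19663 protein-coding genes of the annotation counted by symbol. It was taken from 50000 bp outside KLK1 to 50000 bp outside KLK4 (hg38, chr19:50769146-50961395, 192250 bp), and every peak of both deposited lists in that stretch was kept, whatever its value. It held 26 of 149676 peaks in C4-2B and 31 of 118728 peaks in C4-2BER. ATAC-seq, in which the Tn5 transposase inserts adapters into open chromatin, was carried out in these human prostate cancer cell lines to ask how accessibility differs after enzalutamide resistance. C4-2B is a castration-resistant adenocarcinoma line of the LNCaP lineage that still responds to androgen, and C4-2BER is its enzalutamide-resistant derivative, grown in the constant presence of this inhibitor of androgen signalling and labelled as neuroendocrine-like. Each line had 2 libraries, which the authors merged before calling peaks, so there is 1 list per line, no difference below has a replicate check, no p-value between the lines is given, and intervals cover counting error only. C4-2BER is 1 derived line, and effects of the drug still present in its medium, of resistance and of long culture cannot be told apart.

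Kallikreins are secreted serine proteases made as inactive precursors. KLK3 encodes prostate-specific antigen (PSA), which liquefies semen and is the blood marker of prostate cancer. KLK2 encodes a trypsin-like protease that can activate the PSA precursor, and both genes are classical androgen-responsive genes, with response elements in their promoters and in enhancers a few kilobases upstream. KLK15 and KLK4 encode further trypsin-like kallikreins, KLK4 being made in prostate and in developing enamel, and KLK1 encodes tissue kallikrein, which releases kinins from kininogen. An ATAC-seq peak marks accessible DNA at such an element and does not measure transcription, and expression of these genes was not analysed here.

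On the forward strand the order of the genes is KLK1 (ENSG00000167748, chr19:50819146-50823787, minus strand), KLK15 (ENSG00000174562, chr19:50825289-50837213, minus), KLK3 (ENSG00000142515, chr19:50854915-50860764, plus), KLK2 (ENSG00000167751, chr19:50861568-50880567, plus) and KLK4 (ENSG00000167749, chr19:50906351-50911395, minus). KLK3 and KLK2 are neighbours with copied control regions, so the sequences under their accessible sites are shown first. Positions below are counted from the transcription start site (TSS) of the canonical transcript, with minus for upstream. In each sequence the capitals mark the 15 bases closest to the androgen response element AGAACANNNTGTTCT, whose 12 fixed letters are compared on both strands. All are the plus strand of hg38, and the KLK3 promoter and the KLK2 promoter element come from the RefSeq promoter table of GRCh38.p14. The KLK3 promoter (chr19:50854665-50854914, the 250 bases before the TSS), which held a summit at −106 bp in both lists, and 29 bases of the KLK2 promoter (chr19:50873256-50873284) read:
KLK3 promoter: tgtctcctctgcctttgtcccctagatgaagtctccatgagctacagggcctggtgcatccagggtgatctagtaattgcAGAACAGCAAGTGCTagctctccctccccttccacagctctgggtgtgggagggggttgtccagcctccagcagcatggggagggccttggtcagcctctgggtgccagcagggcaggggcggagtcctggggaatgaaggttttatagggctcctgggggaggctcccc
KLK2 promoter element with flanks: tatgtgtGGAACAGCAAGTGCTggctctc
The bases around the C4-2B summit of the KLK3 upstream site at −4004 bp (chr19:50850811-50851011) and of the KLK2 upstream site at −3803 bp (chr19:50869536-50869736), which are related in sequence, read:
KLK3 upstream, summit -4004 bp: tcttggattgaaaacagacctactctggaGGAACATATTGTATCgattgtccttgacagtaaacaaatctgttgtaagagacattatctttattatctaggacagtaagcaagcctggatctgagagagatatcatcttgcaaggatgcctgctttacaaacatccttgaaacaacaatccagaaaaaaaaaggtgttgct
KLK2 upstream, summit -3803 bp: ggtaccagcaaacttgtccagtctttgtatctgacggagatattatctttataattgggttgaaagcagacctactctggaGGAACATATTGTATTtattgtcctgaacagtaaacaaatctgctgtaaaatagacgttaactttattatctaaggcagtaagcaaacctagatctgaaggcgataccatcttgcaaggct
The other KLK3 upstream site, at −3069 bp (chr19:50851746-50851946), and the strongest peak of the locus found in C4-2BER alone, beside the 3′ end of KLK1 (chr19:50818387-50818587), complete the set:
KLK3 upstream, summit -3069 bp: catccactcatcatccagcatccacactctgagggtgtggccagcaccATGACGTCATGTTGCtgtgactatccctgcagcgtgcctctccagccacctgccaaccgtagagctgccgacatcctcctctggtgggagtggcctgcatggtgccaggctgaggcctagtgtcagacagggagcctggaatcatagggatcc
strongest C4-2BER-only peak: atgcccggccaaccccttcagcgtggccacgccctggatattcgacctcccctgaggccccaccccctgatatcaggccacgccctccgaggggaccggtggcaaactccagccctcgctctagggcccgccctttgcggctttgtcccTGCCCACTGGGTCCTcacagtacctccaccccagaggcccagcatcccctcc

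The KLK3 promoter element AGAACAGCAAGTGCT (chr19:50854745-50854759) matched the consensus with 2 mismatches, T10A and T13G (consensus letter, position from 1 at the 5′ end, letter in the site). Its centre lay at −163 bp from the TSS and 57 bp upstream of the summit. The KLK2 promoter element GGAACAGCAAGTGCT (chr19:50873263-50873277) carried the same differences and a further A1G, so that A1G alone separates the elements of the 2 promoters. The upstream pair GGAACATATTGTATC (KLK3, chr19:50850840-50850854, 4 mismatches) and GGAACATATTGTATT (KLK2, chr19:50869617-50869631, 3 mismatches) likewise differed from each other at a single base, C15T, and shared A1G, T13A and C14T against the consensus. Local alignment of the promoters found 191 identical bases in 218 aligned columns (87.6%), and alignment of the 2 upstream windows found 125 in 145 (86.2%). The −3069 bp window and the C4-2BER-only window had no match closer than 5 mismatches. The similarity touches the read values below: reads that map equally well to both genes fail a mapping quality minimum of 10, which the authors applied, and how many were lost at KLK3 and KLK2 was not tested.

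Over the whole locus, a match with at most 2 mismatches within 100 bp of the summit was present in 1 of the 26 peaks of C4-2B (3.85%) and 1 of the 31 of C4-2BER (3.23%), against 2.76% and 1.40% of all peaks of these lists and 1.19% of 34796 RefSeq promoters of 250 bases before the TSS. In both lists that peak was the KLK3 promoter. With 3 mismatches allowed, 5 peaks in each list matched (19.2% and 16.1%, against 14.7% and 10.8% of all peaks). At that setting 9.20% of promoters match. The KLK2 promoter, the KLK2 upstream site and a site in KLKP1, annotated as a long noncoding RNA, were among these peaks in both lists. Forkhead letters (TGTTTAC or TGTTTGC), bound by pioneer factors such as FOXA1, were found in 7 C4-2B peaks (26.9%, against 16.9% of all peaks) and 7 C4-2BER peaks (22.6%, against 13.1%), including the KLK3 −4004 bp and KLK2 −3803 bp sites in both. GATA letters (AGATAA) were found in 3 C4-2B peaks (11.5%, against 11.8% of all peaks) and 4 C4-2BER peaks (12.9%, against 9.83%). AP-1 letters (TGANTCA) were found in 3 peaks of each list (11.5% and 9.68%, against 10.1% and 9.22%). E-box letters (CAGCTG) were found in 5 C4-2B peaks (19.2%, against 13.7%) and 1 C4-2BER peak (3.23%, against 13.9%). The Wilson 95% interval of each of these shares of the locus includes the share over all peaks, and a match describes letters only.

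The 2 lists had much the same layout here but different read levels. At least 1 base of overlap with a peak of the other list made a peak shared. In C4-2B 23 of 26 peaks were shared and 3 were found in that line only (11.5%, Wilson 95% interval 4.0 to 29.0), where 37.7% of all C4-2B peaks were line-only. The peaks compared were not matched for reads at the summit, with a median of 106.5 in the locus against 29 in the whole C4-2B list. In C4-2BER 24 of 31 were shared and 7 were line-only (22.6%, 11.4 to 39.8), near the 20.8% of all C4-2BER peaks. Inside the span of the 5 genes each list had 1 line-only peak, among 18 peaks in C4-2B against 19 in C4-2BER, so most of the line-only sites lay in the flanks. Peaks covered 17815 bp of the locus in C4-2B (9.27%) and 16968 bp in C4-2BER (8.83%). Against 7028 windows of the same length that held at least 10 C4-2B peaks, the locus was rich in peaks in both lists: 94.9% of windows had fewer C4-2B peaks (median 15) and 99.5% had fewer C4-2BER peaks (median 12). The C4-2B line-only share was lower in 3.22% of these windows and the C4-2BER share in 70.3%.

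**Figure D1:**
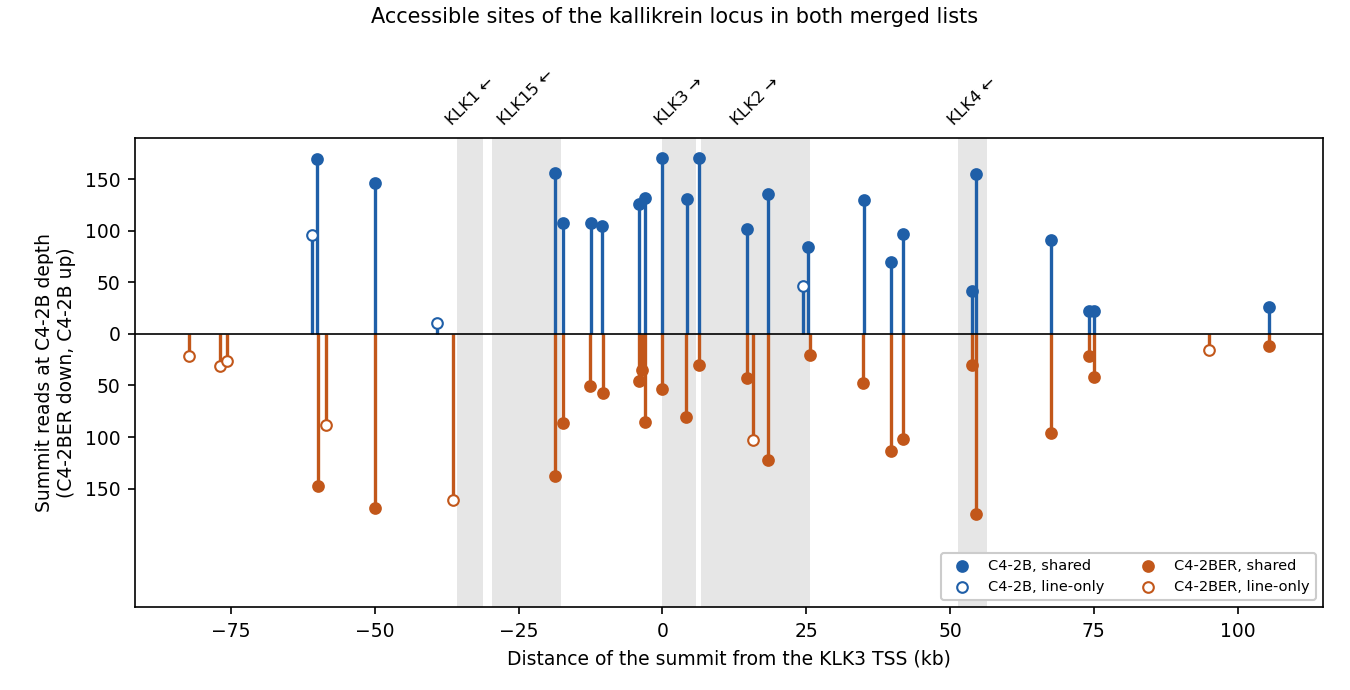
Summits of all peaks of the locus by distance from the KLK3 TSS (kb), with C4-2B reads upwards and C4-2BER reads, scaled to the C4-2B depth, downwards; filled points are shared peaks, open points are line-only, and grey bands are the 5 genes with arrows for strand. The tallest C4-2B sites lie at KLK3 and the KLK2 start with 171 reads each, where the C4-2BER stems are short, while the KLK15, KLK2 and KLK4 promoter sites have stems of like height in both lines.

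Summit reads were recovered from the deposited fold and −log10 p of each summit and are the number of reads, extended to 200 bp, that cover it. Since the C4-2B list is 1.20 times as deep as the C4-2BER list, C4-2BER reads are also given at C4-2B depth before a ratio is taken. The rank percentile is the place of a peak by −log10 p within its own list, with 100 for the strongest. Percentiles of the 2 lists are therefore not on one scale. Across the locus C4-2B peaks had 11 to 171 summit reads with a median of 106.5, and C4-2BER peaks had 10 to 146 with a median of 45. The median of all peaks was 29 and 23, so the kallikrein sites were well above the usual depth in C4-2B and less so in C4-2BER. The median rank percentile was 75.7 in C4-2B against 60.5 in C4-2BER. A −log10 q of 10 or more marked 20 of the 26 peaks in C4-2B (76.9%, against 63.8% of the whole list) and 17 of the 31 in C4-2BER (54.8%, against 53.7%).

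KLK3 itself had fewer reads in C4-2BER at its promoter and at its upstream sites. The promoter peak (chr19:50854578-50855061 in C4-2B and chr19:50854686-50854937 in C4-2BER) had its summit at the same base in both lists, at −106 bp. It held 171 reads in C4-2B against 45 in C4-2BER, which is 53.8 at C4-2B depth. The ratio of C4-2BER to C4-2B was 0.315, or −1.67 on the log2 scale (95% counting interval −2.17 to −1.19), and among all shared peaks 3.60% had a lower ratio. Its rank percentile went from 80.9 to 42.3 and its fold over local background from 3.83 to 3.07. The peak was thus present in both lines, with far fewer reads in the resistant line.

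The KLK3 enhancer region, taken as 3000 to 6000 bp upstream (chr19:50848915-50851915), held 2 C4-2B peaks and 3 C4-2BER peaks, all outside protein-coding genes. The farther site (chr19:50850535-50851544) held 126 reads at −4004 bp in C4-2B, with a weaker summit of 70 reads at −3510 bp in the same peak. In C4-2BER the corresponding summits lay in separate peaks. These held 38 reads at −4027 bp (45.5 at C4-2B depth) and 29 reads at −3530 bp (34.7 at C4-2B depth). The log2 ratio of the strongest summits was −1.47 (−2.03 to −0.94), a ratio of 0.361, and the rank percentile went from 75.8 to 45.7. The nearer site (chr19:50851612-50852270) changed less, from 132 reads at −3069 bp to 71 at −3074 bp (85.0 at C4-2B depth), a log2 ratio of −0.64 (−1.07 to −0.21). Its rank percentile was 76.5 in C4-2B against 80.8 in C4-2BER, so it stood higher in the C4-2BER list with fewer scaled reads. Its −log10 p was nevertheless lower in C4-2BER, 35.5 against 40.5 in C4-2B, so the higher percentile is a place within a list only. Local background, against which −log10 p sets the reads, was 31.4 reads per 200 bp in C4-2B against 10.2 in C4-2BER.

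A peak in a KLK3 intron at 4177 bp (chr19:50858909-50859263) showed the same split between reads and rank. It had 131 reads in C4-2B against 67 in C4-2BER (80.2 at C4-2B depth), a log2 ratio of −0.71 (−1.16 to −0.27), while its percentile went from 53.0 to 78.1. Its background was the highest of the KLK3 to KLK2 stretch in C4-2B, 53.6 reads per 200 bp against 10.4 in C4-2BER. This site is not one of those picked out by the naming rule, and was added after its values were seen.

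KLK2 had its largest and its smallest difference at different starts. Transcripts of KLK2 begin at 6 annotated TSSs, of which the first lies just beyond the 3′ end of KLK3. The peak at that first start (chr19:50860478-50861832 in C4-2B, chr19:50861124-50861644 in C4-2BER), which also overlaps the end of KLK3 in C4-2B, held 171 reads in C4-2B against 25 in C4-2BER (29.9 at C4-2B depth). This was the deepest fall of the locus, a ratio of 0.175 or −2.52 on the log2 scale (−3.18 to −1.90), and 0.502% of all shared peaks had a lower ratio. Its percentile went from 79.2 to 12.4. At the canonical start the promoter peak (chr19:50872946-50873775 and chr19:50872970-50873465, summits at −216 and −213 bp) held 136 and 102 reads (122 at C4-2B depth). The log2 ratio was −0.16 (−0.54 to 0.22), whose interval spans equal, and the percentile was 88.6 and 90.3.

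Upstream of KLK2 the lists parted. In its enhancer region (chr19:50867439-50870439) the site related in sequence to the KLK3 −4004 bp site (chr19:50869244-50869913, summits at −3803 and −3792 bp, in an intron of the longer KLK2 transcripts) held 102 reads in C4-2B against 36 in C4-2BER (43.1 at C4-2B depth). Its log2 ratio was −1.24 (−1.83 to −0.68), a ratio of 0.422, and its percentile went from 77.5 to 37.9. Next to it, at −2859 bp, C4-2BER had a peak with no C4-2B counterpart (chr19:50870363-50870782) that held 86 reads with a −log10 q of 44.4 and a percentile of 86.8. At the background of the nearest C4-2B summit, 944 bp away, 32 reads would have reached the lowest −log10 p of the C4-2B list, and the C4-2BER reads come to 103 at that depth. The C4-2BER-only peak overlaps the enhancer region with its edge, and its summit lies outside it. Upstream of the canonical KLK2 start C4-2BER therefore held a weaker and a stronger accessible site, side by side.

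The 3′ end of KLK2 was accessible mainly in C4-2B. The peak over its last exon (chr19:50879684-50880661) held 84 reads in C4-2B, and the overlapping C4-2BER peak, whose summit lay 401 bp away, held 17 (20.3 at C4-2B depth), a log2 ratio of −2.05 (−2.89 to −1.28) between summits at different positions. The neighbouring exonic peak (chr19:50878956-50879632) was found in C4-2B only, with 46 reads and a −log10 q of 6.93, the highest of the 3 C4-2B-only peaks. At the background of the nearest C4-2BER summit 11 reads would have sufficed, and 38.4 would be the C4-2B reads at C4-2BER depth.

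**Figure D2:**
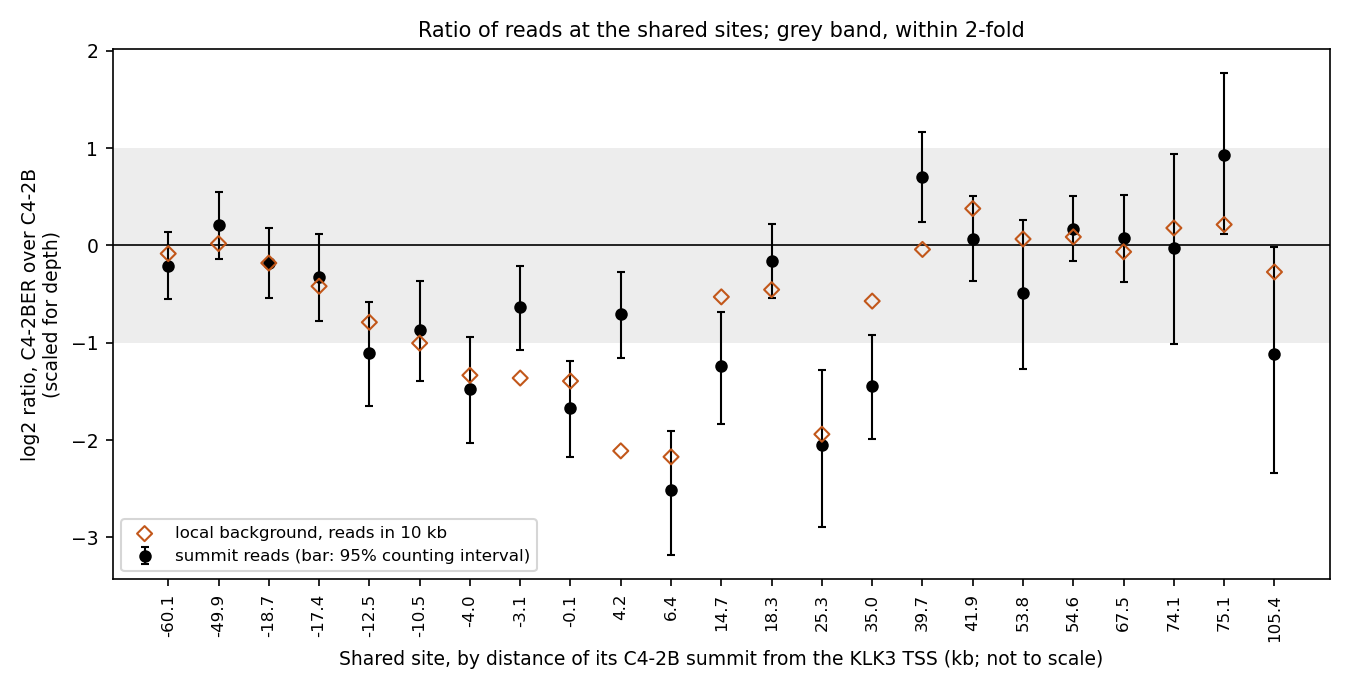
Log2 ratio of C4-2BER to C4-2B summit reads at the 23 shared sites (black points, with bars for the 95% counting interval) and of the reads in the 10 kb around them (open diamonds), in genomic order and labelled by distance of the C4-2B summit from the KLK3 TSS in kb. All 8 sites from the KLK3 upstream region to the KLK2 end lie below 0, with a low of −2.52 at the first KLK2 start, and the KLK4 promoter site lies near 0, at 0.17.

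The strongest promoter peaks of KLK15 and KLK4, the genes on either side of KLK3 and KLK2, had ratios of 0.882 and 1.13, and their weaker promoter peaks had lower ones. At KLK15 the strongest promoter peak (chr19:50835768-50836562, summits 998 and 1043 bp inside the gene from its outermost TSS) held 156 and 115 reads (138 at C4-2B depth), a log2 ratio of −0.18 (−0.54 to 0.18). A second KLK15 promoter peak (chr19:50837359-50837705) held 108 and 72 reads, a ratio of 0.798. At KLK4 the promoter peak (chr19:50909022-50909908, summits −171 and −183 bp from the inner TSS) held 155 and 146 reads (175 at C4-2B depth), a log2 ratio of 0.17 (−0.16 to 0.51). It had the highest rank of the locus in both lists, 3937 of 149676 in C4-2B and 2252 of 118728 in C4-2BER, while a weaker KLK4 peak held 42 and 25 reads (29.9 at C4-2B depth), a ratio of 0.712. The intervals of these sites span equal, which bounds the difference but does not show that the lines are alike.

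KLK1 had no promoter peak in either list. The other 4 members had one in both, a count of 4 of 5, where 80.6% of all protein-coding genes had a promoter peak in C4-2B and 81.2% in C4-2BER. A promoter peak here is one that overlaps 2000 bp either side of any TSS of the gene. The nearest site to KLK1 was instead a C4-2BER-only peak beyond its 3′ end (chr19:50817878-50818905), 241 bp outside the gene and within the transcribed pseudogene TMEM277P. It held 135 reads with a −log10 q of 79.8 and a percentile of 95.2, and was the strongest of the 7 C4-2BER-only peaks. In C4-2B 11 reads would have been enough to enter the list at the background of its nearest summit, and the C4-2BER reads come to 162 at that depth.

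The remaining line-only peaks were weaker. The third C4-2BER-only peak by −log10 q (chr19:50777878-50778120, in an intron of SMIM47) held 26 reads at a −log10 q of 9.27. The other C4-2B-only peaks were one in the SMIM47 promoter (chr19:50793856-50794078, 96 reads, −log10 q 2.91) and one 3442 bp beyond KLK1 (chr19:50815505-50815704, 11 reads, −log10 q 1.44). The latter is the weakest peak of the locus, and its reads, 9.19 at C4-2BER depth, were below the 27 that its surroundings would have required there. For the 9 other line-only peaks the reads at the depth of the other list exceeded the requirement. Where a C4-2BER-only peak had no C4-2B summit within 5000 bp, the requirement was taken at the genome-wide floor, the most lenient background, as 8 reads. The margin was small at the C4-2BER-only peak chr19:50796245-50796444, with 88.5 reads against 85.

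**Figure D3:**
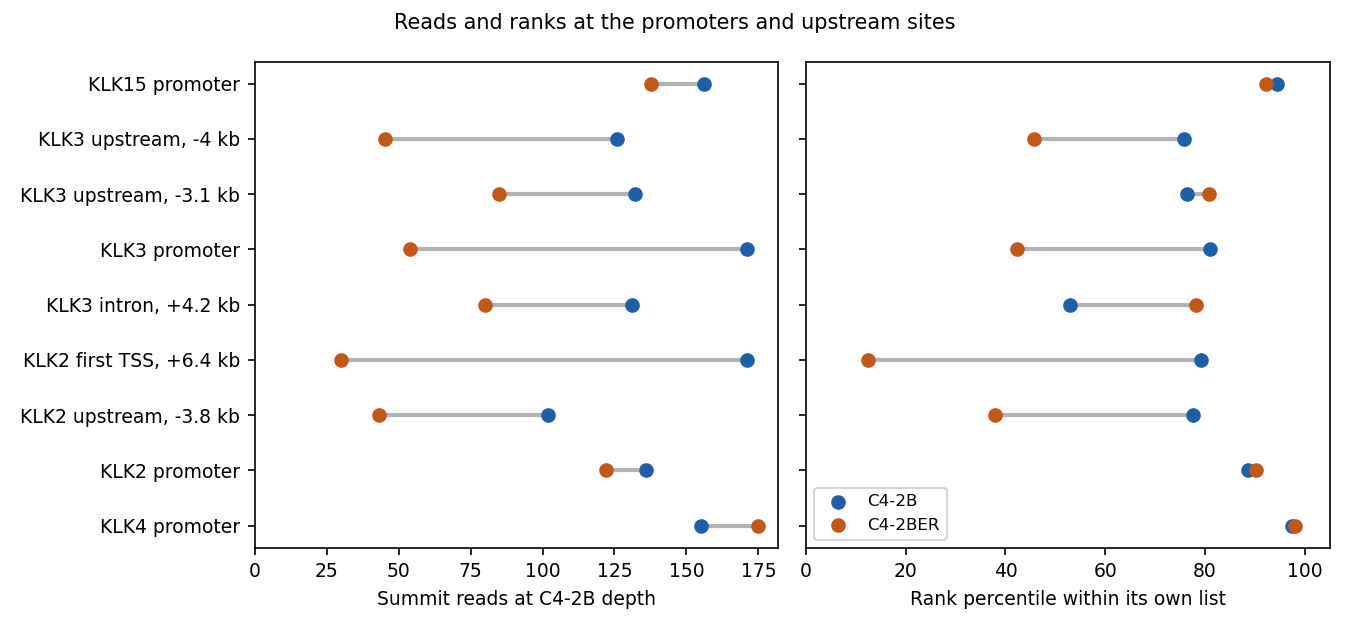
Summit reads at C4-2B depth (left) and rank percentile within each list (right) for the strongest promoter peaks, the upstream sites and the first KLK2 start, with C4-2B in blue, C4-2BER in orange and a grey line joining the pair; the KLK3 sites and the first KLK2 start are labelled by distance from the KLK3 TSS, the KLK2 upstream site from that of KLK2. Reads are lower in C4-2BER at every site except the KLK4 promoter, while the rank moves up at the KLK3 −3069 bp and intron sites and at the KLK2 and KLK4 promoters.

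Taking the 23 shared sites together, 8 had at least 2-fold fewer reads in C4-2BER (34.8%, against 13.4% of all 93185 shared peaks), and 0 had at least 2-fold more (against 3.87%). The log2 ratio ran from −2.52 to 0.93 with a median of −0.49, where all shared peaks had a median of −0.13 and the 3297 shared peaks of chromosome 19 a median of 0.15. Of the windows of the same length, 19.8% had a lower median. The ratio was below 1 at 17 of the 23 sites, where it was below 1 at 54971 of all 93185 shared peaks. The whole counting interval was below equal at 11 sites and above it at 2. This count was not taken over all shared peaks, and the interval is narrower at sites with many reads. The 3 largest falls were at the first KLK2 start, the KLK2 last exon and the KLK3 promoter. The 3 largest rises were at 75074 bp from the KLK3 TSS, beyond KLK4 (chr19:50929833-50930378, 22 and 35 reads, log2 ratio 0.93, 0.12 to 1.77), at KLKP1 (chr19:50894369-50894850, 70 and 95 reads, 0.70, 0.24 to 1.17) and at the start of the pseudogene C19orf48P (chr19:50804422-50805242, 146 and 141 reads, 0.21, −0.14 to 0.55).

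The falls lay close together. From the KLK3 upstream region to the end of KLK2, a stretch set apart after the values were seen, all 8 shared sites had a ratio below 1. Their median ratio was 0.390. Of these sites 5 were at least 2-fold lower, against 13.4% of all shared peaks. That share gives scale only, since the stretch was picked after these values were seen. The whole interval was below equal at 7 sites, a count not taken over all shared peaks. At the other 15 sites the median ratio was 0.882 and 3 were at least 2-fold lower. One of those 3 was a second KLKP1 site (chr19:50889330-50890211), which held 130 reads in C4-2B against 40 in C4-2BER (47.9 at C4-2B depth). Another lay between KLK15 and KLK3 (chr19:50842088-50842757, 108 and 42 reads, ratio 0.465), and the last was a weak site in a KLK6 intron (26 and 10 reads). Of the 6 shared sites that had a −log10 q of at least 10 in C4-2B and under 10 in C4-2BER, 5 lay between the KLK3 upstream region and the KLK2 end. The share of all shared peaks that crossed 10 in this way was not computed, and −log10 q is not scaled for depth. The summits of 19 of the 23 pairs lay within 50 bp of each other. The rank percentile fell at 15 sites and rose at 8, and at 3 sites it rose although scaled reads fell. The shares of all shared peaks that did so were not computed, so these counts describe the locus only.

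**Figure D4:**
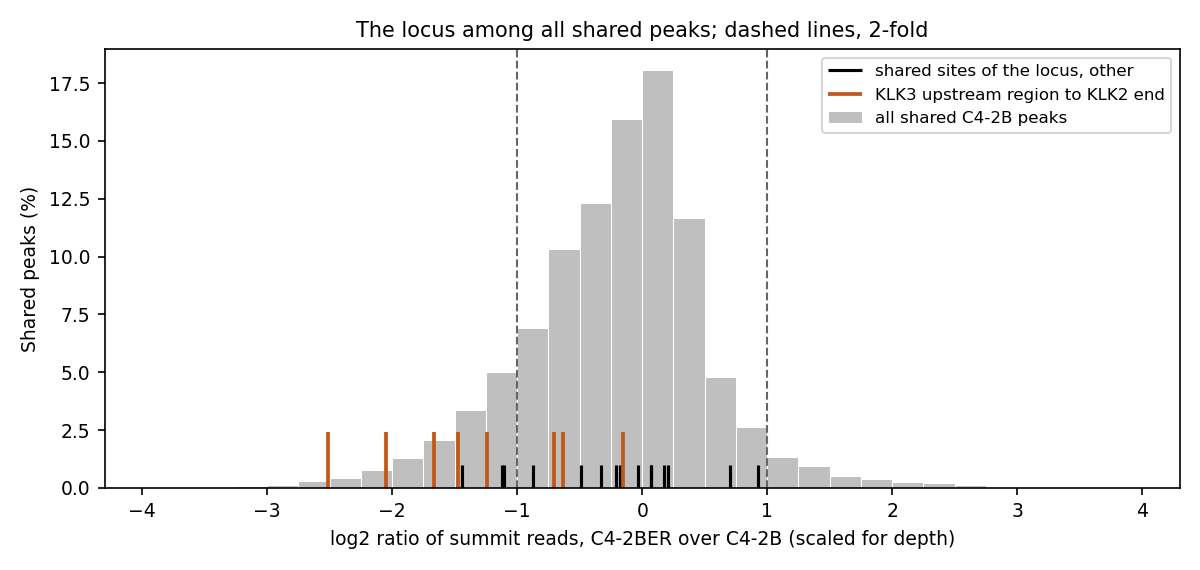
Histogram of the log2 ratio of summit reads for all 93185 shared peaks (grey, percent of peaks per bin), with the 23 sites of the locus as ticks, orange for the KLK3 upstream region to the KLK2 end and black for the rest; dashed lines mark 2-fold. The orange ticks run from −2.52 to −0.16 and the black ticks from −1.44 to 0.93.

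Reads in the 10000 bp around each summit were also lower between KLK3 and KLK2, in a count that holds the reads of the peaks. The local background, as macs2 takes it from the reads in the 10000 bp around a summit, peak reads included, can be compared with the genome-wide floor of 2.24 reads per 200 bp in C4-2B against 1.87 in C4-2BER. The 14 C4-2B summits of the stretch had a median background of 24.5 reads per 200 bp, 11 times the floor, and the 13 C4-2BER summits one of 10.3, which is 5.51 times the floor. The highest values were 2682 reads in 10000 bp in C4-2B, in the KLK3 intron, and 698 in C4-2BER, at the KLK3 promoter. At the KLK3 promoter the background was 43.9 reads per 200 bp in C4-2B against 13.96 in C4-2BER. At the 8 shared sites the background ratio ran from 0.222 to 0.730 with a median of 0.385, close to the 0.390 of the summit reads. These 2 measures share reads, and reads outside peaks were not counted apart. Over all 23 sites its median was 0.748, and 8.35% of windows of the same length had a lower median background ratio. At the other 15 sites the background ratio ran from 0.499, at the site −10453 bp from the KLK3 TSS, to 1.30 with a median of 0.956, so the lowest of these overlap the range of the stretch. The highest background of the locus was at −60407 bp from the KLK3 TSS in C4-2B (3108 reads in 10000 bp) and at −60460 bp in C4-2BER (2472 reads), by the SMIM47 promoter. With local background taken off first, the log2 ratio was −1.78 at the KLK3 promoter, −1.52 at −4004 bp, −0.47 at −3069 bp and −1.46 at the KLK2 upstream site. The lists hold no measure of DNA copy number, and its part in the lower reads of the stretch was not tested.

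**Figure D5:**
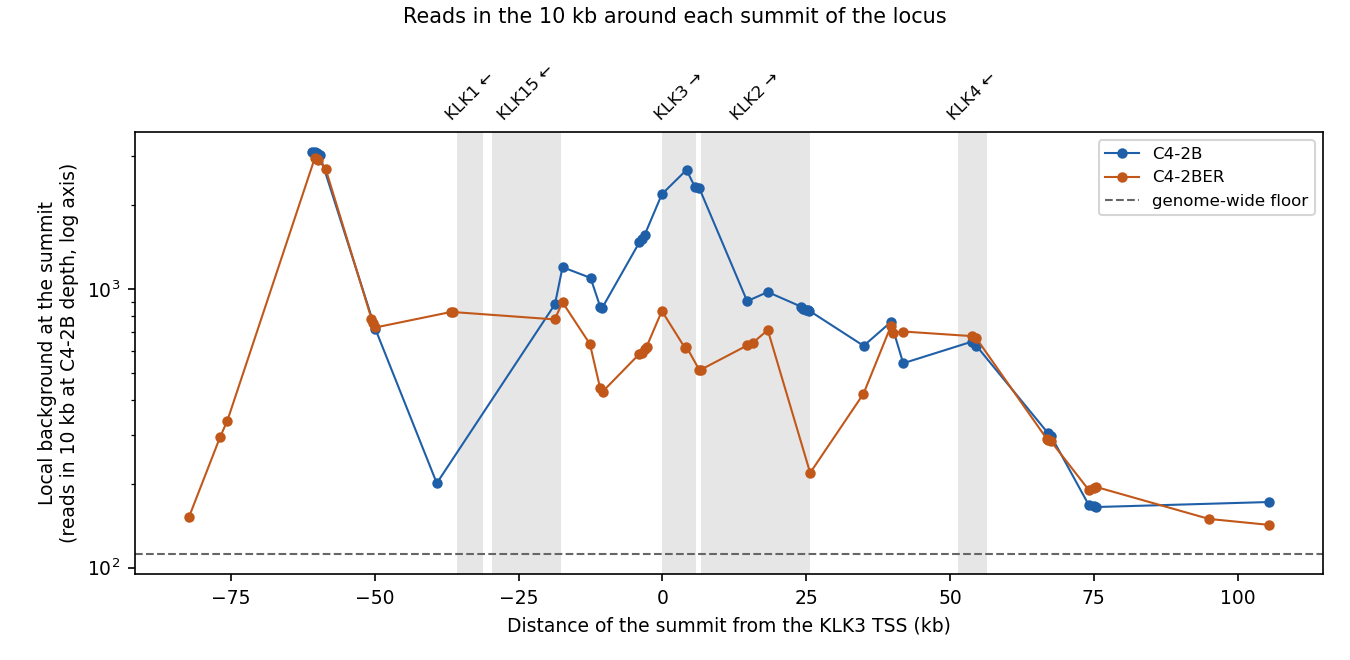
Reads in the 10 kb around each summit of the locus, scaled to C4-2B depth, on a log axis, by distance from the KLK3 TSS (kb), with lines joining the summits of a list and a dashed line at the genome-wide floor. C4-2B rises to 2682 reads over KLK3, where C4-2BER stays far lower, and both lists meet at KLK4 and at the maximum left of KLK1.

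The labels were set against markers by the same promoter measure. Of 7 luminal genes, FOXA1 and KRT8 among them, 7 carried a peak at the promoter in either list, and so did 7 of 7 neuroendocrine genes, among them CHGA and SYP. Since most genes carry such a peak, its presence is no check of either label, and the count takes no account of the reads at these promoters. For the 5 kallikreins, too, the same promoters had a peak in both lines, and the lines differed in reads and in sites outside the promoters.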

How the data were processed

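ATAC-seq was done on 4 libraries, 2 of C4-2B and 2 of C4-2BER. Per the methods of the study, trimmed reads were aligned with Bowtie2 to hg38, filtered at a mapping quality of at least 10 and cleared of duplicates. Replicates were merged and macs2 (version not given in the sources used here) was run without a model, with a shift printed as 100 and an extension of 200 bp. Near CTCF core matches summits lay a median of 24 bp (C4-2B) and 22 bp (C4-2BER) away.

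The fold that the authors deposited is a ratio, summit reads plus 1 over local background plus 1. For each summit the −log10 p was also deposited, with a −log10 q adjusted within its list, and the other deposited column used gives the summit offset. Summits that share an interval were counted once, by the highest −log10 p. Fold and p together fix a whole number of reads for 100% of summits, a step tested on simulated data. The floor gives 30.2 M reads for C4-2B and 25.2 M for C4-2BER at a macs2 genome size of 2700000000 bp. At most 400 reads fit over a summit, and the weakest peaks had 8 and 7 reads, so weaker sites are not listed. No column belonged to a single library, and 0 columns of other samples were found.

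Genes and TSSs came from GENCODE release 44. Each C4-2B peak was paired with the overlapping C4-2BER peak of highest −log10 p, and ratios carry exact binomial (Clopper-Pearson) 95% intervals. Letters were searched on both strands within 100 bp of the summit. One gene of each marker list is not reported here. Members and lists were chosen with earlier results of these data known. Named singly were the members' strongest promoter peaks, all peaks of the upstream regions (3000 to 6000 bp), and, in the locus, the 3 strongest line-only peaks of each list and the 3 largest falls and rises. Other sites, the KLK3 to KLK2 stretch, its background and matches with 3 mismatches were picked after values were seen. Python 3.11.15, numpy 2.4.6, pandas 2.3.3, scipy 1.17.1 and matplotlib 3.10.9 were used.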

Additional observations from a re-analysis of the deposited data

How the results depend on the processing

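No paired analysis was possible because each line has a single list from merged libraries, and for the same reason no replicate could be left out. The 3 C4-2B-only peaks became 6 of 20 with a −log10 q of at least 10 and 6 of 17 with the top 50000 peaks. The line-only share of all peaks at these settings was not computed. The count became 1 with equal numbers of top peaks or with no flank, and 10 with a flank of 100 kb. It became 5 when sharing needed a reciprocal overlap of 50% or summits within 200 bp. The 7 C4-2BER-only peaks became 3 with a −log10 q of at least 10, 1 with no flank and 11 with 100 kb. Peaks in the locus fell to 17 in C4-2B with the top 50000, and in C4-2BER to 17 with a −log10 q of at least 10, 16 with the top 50000 and 19 with no flank. By construction a stricter list or a shorter stretch holds fewer peaks. The androgen response element was found in 2 peaks of either list within 250 bp, in 5 with 3 mismatches and in 0 with 1 mismatch, against 1. The median log2 ratio of −0.49 stayed negative in each alternative, from −0.71 with no flank to −0.19 with a −log10 q of at least 10, and was −0.64 when centred on chromosome 19, a setting added after the data were seen. The promoter and upstream ratios kept their sign when centred or with background taken off. At the KLK15 and KLK2 promoters the sign says little. Their intervals span equal, and their centred log2 ratios were −0.05 and −0.03. With the canonical TSS only, 3 members had a promoter peak in either list. In C4-2BER the KLK3 promoter peak, with a −log10 q of 8.86, dropped out at a minimum of 10, which left 3 members with a promoter peak, as did the top 50000 peaks.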

Other observations

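The other 10 kallikreins of the cluster, KLK5 to KLK14, lie beyond KLK4 on the same chromosome and several are best known from skin and other epithelia. A promoter peak was present for 6 of them in C4-2B against 5 in C4-2BER, against 80.6% and 81.2% of all genes. KLK5, KLK6, KLK9 and KLK14 had none in either list, and KLK7, a chymotrypsin-like protease of skin shedding, had a weak one in C4-2B only (13 reads, rank percentile 7.78). At KLK8 the strongest promoter peak held 35 reads in C4-2B against 93 in C4-2BER, and its rank percentile went from 58.4 to 92.0. KLK12 showed the opposite, with 48 reads in C4-2B against 11 in C4-2BER and percentiles of 76.3 and 12.9. For KLK10 (34 and 66 reads), KLK11 (21 and 28) and KLK13 (39 and 21) the strongest promoter peaks of the 2 lists lay at different positions. These values have no replicate check.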
